A study of Homo sapiens and Mus musculus with 7 samples.

Results

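The genes described here are the haem oxygenase gene HMOX1, 6 further targets of the transcription factor NRF2 (GCLM, GCLC, NQO1, TXNRD1, SRXN1 and PIR) and 3 genes that regulate them (NFE2L2, which encodes NRF2, KEAP1 and BACH1). They were taken by symbol from a table of RNA levels, in which all 10 were listed, among 14920 genes in all. RNA was sequenced from HEL, a line of human erythroleukaemia cells that makes fetal and embryonic globins and responds to hemin, the oxidised form of haem. The 4 groups were HEL cells with KAP1 knocked down (labelled KAP1 KD) and given 50 µM hemin for 5 days, KAP1 KD cells without hemin, KAP1 WT cells given the same hemin, and KAP1 WT cells without hemin. A single library stood for each group (250 ng total RNA as input), so no difference below has a replicate check and none carries a p-value. The labels do not give the method of the knockdown or say whether the lines were clones, and the WT columns of the table are headed Ctrl.

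KAP1, encoded by TRIM28, is a corepressor that KRAB zinc finger proteins bring to DNA. In unstressed cells KEAP1 binds NRF2 and hands it to a CUL3 ubiquitin ligase, and BACH1 sits with small MAF proteins on the antioxidant response elements of NRF2 target genes. Oxidants and electrophiles modify KEAP1 and let NRF2 build up, whereas haem binds BACH1, takes it off DNA and leads to its breakdown. HMOX1 is the best known gene released in this way, and its product opens the haem ring to give biliverdin, carbon monoxide and iron.

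The letters of the response element were searched for in RefSeq promoter windows (GRCh38.p14), each from 250 bases before a gene's start to 50 bases after it. Windows were listed for 9 of the 10 genes, all but HMOX1, and some genes had several starts, which made 14 windows. The core TGACNNNGC, searched on both strands, occurred in 5 of these 14 windows (35.7%), those of 4 genes, and in 4687 of all 35116 windows (13.3%). The related palindrome TGANTCA, which can overlap the core, occurred in 2 of the 14 windows (14.3%) and in 7.71% of all. Several windows can belong to the same gene and no share per gene was taken over all genes, so nothing is read from these gaps. Bases outside the windows were not searched. A match is a description of letters and not a shown binding site. The matches are printed 5′ to 3′ along the gene's own strand with the matched letters in capitals, because the genes that hold them had unlike hemin responses, given below.
GCLM, 34 bases before the start, chr1:93909446-93909474, minus strand: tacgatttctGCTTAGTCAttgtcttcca
KEAP1, 31 bases before a start, chr19:10502784-10502812, minus strand: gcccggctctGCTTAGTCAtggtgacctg
KEAP1, 54 bases before the same start, chr19:10502807-10502835, minus strand: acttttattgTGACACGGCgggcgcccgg
PIR, from base 27 of the transcript, chrX:15493289-15493317, minus strand: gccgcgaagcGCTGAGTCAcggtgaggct
TXNRD1, 99 bases before a start, chr12:104215670-104215698, plus strand: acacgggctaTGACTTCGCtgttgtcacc
TXNRD1, 8 bases before the same start, chr12:104215761-104215789, plus strand: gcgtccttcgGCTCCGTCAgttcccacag
TXNRD1, 102 bases before another start, chr12:104286920-104286948, plus strand: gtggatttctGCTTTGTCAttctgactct
BACH1, TGANTCA, 48 bases before a start, chr21:29298864-29298890, plus strand: gcggaaggagTGAGTCAcctgaccgct

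The GCLM and KEAP1 matches closest to their starts have the same 9 letters, and the PIR match holds TGANTCA as well. The 250 bases before the GCLM start (chr1:93909431-93909680, minus strand) are given whole to show how near the match lies to the start, which follows the last base.
GCLM: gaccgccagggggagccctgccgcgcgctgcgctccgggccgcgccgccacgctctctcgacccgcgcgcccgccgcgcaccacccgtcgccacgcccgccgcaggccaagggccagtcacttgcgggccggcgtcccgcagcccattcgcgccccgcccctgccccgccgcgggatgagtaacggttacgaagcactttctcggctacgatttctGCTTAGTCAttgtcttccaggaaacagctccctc

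Levels are given in scaled TPM, which is reads per transcript length, put on one depth for all 4 libraries with a mean library sum of 1000000. Depth was 23529352 to 41222452 reads on the chosen transcripts. The targeted gene TRIM28 stood at 190.1 scaled TPM in KAP1 KD cells and 400.0 in KAP1 WT cells with hemin, and at 317 in KAP1 KD cells and 421 in KAP1 WT cells without hemin. Its row is 1 of 5 that hold only whole numbers and of unstated origin, so it is a weak check of the knockdown. Of 12 erythroid markers 12 were in the table and 11 reached 5 scaled TPM, with summed levels, mostly from globin genes, of 75802 in KAP1 KD and 59897 in KAP1 WT cells with hemin, and 19298 and 16313 without. Over the 11 markers the median log2 ratio of KAP1 KD over KAP1 WT was -0.26 with hemin (6 below 0) and 0.05 without (5 below 0), so the list as a whole did not follow the sum. The band 3 gene SLC4A1 stayed under 5 scaled TPM in every library. Megakaryocyte markers (8 of 8 at 5 scaled TPM) summed to 1937 scaled TPM in KAP1 KD and 1414 in KAP1 WT cells with hemin, and to 2060 and 2785 without. With hemin 5 of these 8 were at least 2-fold higher and 0 lower in KAP1 KD cells (median log2 ratio 1.41). Of all genes 6.01% were higher and 4.11% lower there. Of the 5, THBS1 (209 scaled TPM against 4.83 in KAP1 WT cells) and PPBP (6.95 against 1.34) reached 5 scaled TPM only in the KD library. A difference was thus built in for them. Without hemin 1 was higher and 1 lower (median -0.22), where 6.74% and 6.43% of all genes were. These were THBS1, which entered through the KD library alone, and PPBP, which entered through the WT library alone. The median hemin ratio of these markers was 0.19 over 8 in KAP1 KD cells and -1.16 over 7 in KAP1 WT cells. The 2 medians cover unlike sets, since THBS1 stayed under 5 scaled TPM in both KAP1 WT libraries. PPBP entered only through the hemin library in KAP1 KD cells and only through the library without hemin in KAP1 WT cells. Myeloid markers (6 of 8 in the table, 4 at 5 scaled TPM) summed to 76.0 to 116 in KAP1 KD and 839 to 1434 in KAP1 WT libraries, with the lysozyme gene LYZ as the largest part in KAP1 KD and the eosinophil granule gene PRG2 in KAP1 WT libraries. Of the 5 lymphoid and 6 non-blood markers, 1 and 4 were in the table, with sums of 3.33 to 28.0 and 29.4 to 90.9. The part these shifts had in the results below was not tested.

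HMOX1 had the largest response to hemin of all genes in KAP1 WT cells. It stood at 187 scaled TPM in KAP1 KD cells with hemin, 8.64 in KAP1 KD cells without, 371 in KAP1 WT cells with hemin and 5.50 in KAP1 WT cells without. Both libraries with hemin were far above both without. The log2 ratio of hemin over no hemin was 4.36 in KAP1 KD cells, a 20.5-fold difference, and 5.95 in KAP1 WT cells, a 61.9-fold difference. A log2 ratio here compares scaled TPM values after adding 0.5 to each, which understates changes of low genes. Its 95% intervals are exact conditional binomial ones on the reads without that addition, cover counting error only, and were 4.21 to 4.67 and 5.84 to 6.33. In KAP1 KD cells 3 of 10828 genes had a larger ratio, namely RNU2-2, RN5-8S1 and SNORD3C, and in KAP1 WT cells 0 of 10799 did.

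Those 3 genes encode structural RNAs without a poly-A tail, and all were highest in the KAP1 KD library with hemin. RN5-8S1 stood at 3477 scaled TPM in KAP1 KD cells with hemin, 80.8 in KAP1 KD cells without, 512 in KAP1 WT cells with hemin and 453 in KAP1 WT cells without. RNA from transcripts with an NR accession took 3.79% of the reads in KAP1 KD cells with hemin, 2.60% in KAP1 KD cells without, 3.81% in KAP1 WT cells with hemin and 2.98% in KAP1 WT cells without. With the scaling taken from messenger RNAs only, each of 49 ratios and differences of the 10 genes stayed within its counting interval. The 49 leave out the HMOX1 difference between hemin responses, given below.

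**Figure D1:**
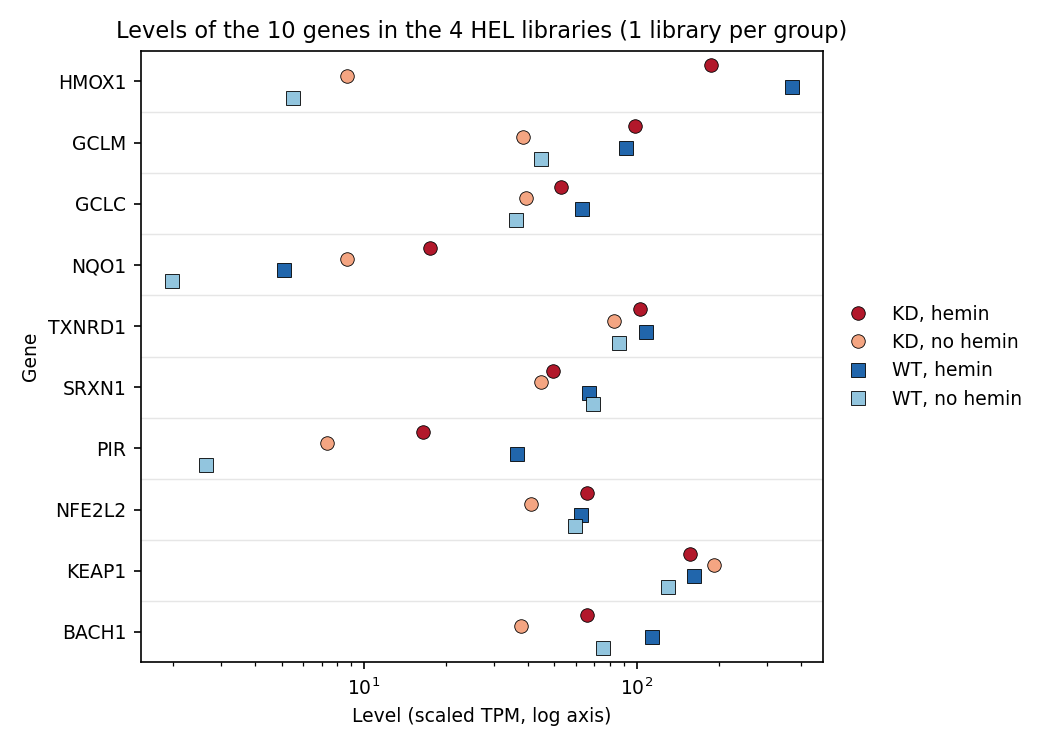
Level of each of the 10 genes in each of the 4 HEL libraries, in scaled TPM on a log axis. Circles are KAP1 KD and squares KAP1 WT libraries, dark with hemin and light without; HMOX1 runs from 5.50 in KAP1 WT cells without hemin to 371 in KAP1 WT cells with it.

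Knockdown and WT cells thus differed in opposite directions at HMOX1 in the absence and presence of hemin. Without hemin HMOX1 was 1.52-fold higher in KAP1 KD than in KAP1 WT cells (log2 ratio 0.61, interval 0.32 to 0.99, from 163 reads in KD and 141 in WT). With hemin it was 1.98-fold lower in KAP1 KD cells (log2 ratio -0.98, interval -1.03 to -0.94, from 6323 reads in KD and 10857 in WT). In these bulk samples fewer responding cells and less RNA per cell cannot be told apart. The hemin response in KAP1 KD cells less that in KAP1 WT cells was -1.59 on the log2 scale (interval -1.92 to -1.26; intervals of such differences are normal approximations from the 4 read counts), and 39 of 11162 genes had a more negative difference. The difference is the same arithmetic as the turn between the knockdown ratios, since the 4 comparisons share their libraries. HMOX1 made up 35.6% of the summed scaled TPM of the 7 target genes in KAP1 KD cells with hemin and 3.76% in KAP1 KD cells without. In KAP1 WT cells it made up 49.9% with hemin and 2.23% without.

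HMOX2, the constitutive haem oxygenase gene, stayed between 22.5 and 30.6 scaled TPM in the 4 libraries. The ratio of HMOX1 to HMOX2 levels was 8.31 in KAP1 KD cells with hemin and 0.283 in KAP1 KD cells without. In KAP1 WT cells it was 12.7 with hemin and 0.212 without, so HMOX1 was the lower of the pair in both libraries without hemin.

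PIR, which encodes the iron-binding nuclear protein pirin, had the pattern of HMOX1 with a larger gap between the cells. It stood at 16.4 scaled TPM in KAP1 KD cells with hemin, 7.34 in KAP1 KD cells without, 36.6 in KAP1 WT cells with hemin and 2.64 in KAP1 WT cells without. Without hemin the KD library was the higher, and with hemin the WT library was. Hemin over no hemin gave a log2 ratio of 1.11 in KAP1 KD cells (2.16-fold, interval 0.89 to 1.45) and 3.56 in KAP1 WT cells (11.8-fold, interval 3.43 to 4.18). In KAP1 WT cells 1 of 10799 genes, HMOX1, had a larger ratio. Knockdown over WT was 1.32 without hemin (interval 1.04 to 1.93) and -1.13 with hemin (interval -1.31 to -1.001), 2.50-fold higher and 2.19-fold lower.

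The difference of the PIR hemin responses, KAP1 KD minus KAP1 WT, was -2.45 (interval -2.90 to -1.996). Of 11162 genes 4 had a more negative one, and they were SHISA3, HBZ, HOXD1 and DES. Of the 10 genes 2, PIR and HMOX1, had a KAP1 KD response at least 2-fold below the KAP1 WT one, as 2.88% of all genes did, and 0 had one at least 2-fold above, as 3.39% of all genes did. PIR passed the limit of 5 scaled TPM only through the KD library in the knockdown comparison without hemin, and only through the hemin library in KAP1 WT cells, so a difference was built in there. It rested on 65 reads in KAP1 WT cells without hemin, the thinnest count among the 10 genes. Its other listed transcript gave log2 ratios at most 0.05 away from these in the 4 comparisons.

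**Figure D2:**
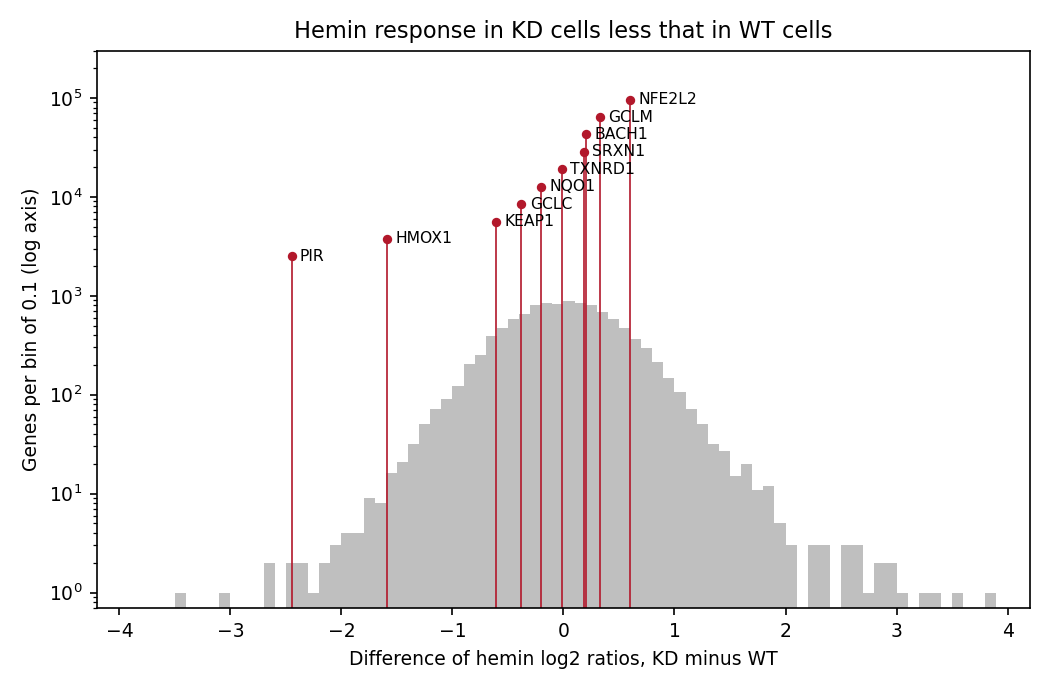
Histogram of the hemin log2 ratio in KAP1 KD cells minus that in KAP1 WT cells for all genes with at least 5 scaled TPM in 1 of the 4 libraries, on a log count axis. Red lines mark the 10 genes, and their heights only separate the names; PIR at -2.45 and HMOX1 at -1.59 lie in the left tail while the other 8 lie between -0.61 and 0.60.

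NQO1, the quinone reductase gene that serves as a standard readout of NRF2, differed mainly with the knockdown. It stood at 17.5 scaled TPM in KAP1 KD cells with hemin, 8.64 in KAP1 KD cells without, 5.11 in KAP1 WT cells with hemin and 1.98 in KAP1 WT cells without. Both KD libraries were above both WT libraries. The level in KAP1 KD cells was 3.69-fold that in KAP1 WT cells without hemin (log2 ratio 1.88, interval 1.77 to 2.50) and 3.22-fold with hemin (1.69, interval 1.58 to 1.99). Of 10879 genes 89 had a larger ratio without hemin, and 129 of 10904 with it. Hemin over no hemin was 0.98 in KAP1 KD cells and 1.18 in KAP1 WT cells, and the difference of -0.20 had a counting interval of -0.61 to 0.21 that spans 0. NQO1 passed the limit of 5 scaled TPM without hemin only through its KD library, and in KAP1 WT cells only through the hemin library, so a difference was built in there. With plain library sums it no longer reached the limit in KAP1 WT cells.

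With hemin, NQO1 was thus higher in KAP1 KD cells while HMOX1 and PIR were lower there. The 3 NQO1 transcripts gave knockdown ratios of 1.88 to 1.96 without hemin and 1.55 to 1.69 with it.

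GCLM and GCLC encode the modifier and the catalytic subunit of glutamate-cysteine ligase, the rate-limiting enzyme of glutathione synthesis. GCLM stood at 99.0 scaled TPM in KAP1 KD cells with hemin, 38.3 in KAP1 KD cells without, 91.6 in KAP1 WT cells with hemin and 44.6 in KAP1 WT cells without. GCLC stood at 52.8 in KAP1 KD cells with hemin, 39.3 in KAP1 KD cells without, 63.3 in KAP1 WT cells with hemin and 36.2 in KAP1 WT cells without. Every library with hemin was above every library without for both genes.

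The subunit genes differed in opposite ways between the cells. Hemin over no hemin for GCLM was 2.56-fold in KAP1 KD cells (log2 ratio 1.36) and 2.04-fold in KAP1 WT cells (1.03), a difference of 0.33 (interval 0.22 to 0.44). For GCLC it was 1.34-fold in KAP1 KD cells (0.42) and 1.74-fold in KAP1 WT cells (0.80), a difference of -0.38 (interval -0.49 to -0.27). The ratio of GCLM to GCLC levels was 1.87 in KAP1 KD cells with hemin and 0.974 in KAP1 KD cells without, against 1.45 in KAP1 WT cells with hemin and 1.23 in KAP1 WT cells without. Between KAP1 KD and KAP1 WT cells the log2 ratios were -0.22 without and 0.11 with hemin for GCLM. For GCLC they were 0.12 without and -0.26 with hemin.

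TXNRD1, cytosolic thioredoxin reductase, and SRXN1, the sulfiredoxin that repairs overoxidised peroxiredoxins, varied least of the 7 targets over the 4 libraries. TXNRD1 stood at 103 scaled TPM in KAP1 KD cells with hemin, 82.9 in KAP1 KD cells without, 109 in KAP1 WT cells with hemin and 86.5 in KAP1 WT cells without. Its hemin ratios were 0.31 in KAP1 KD cells and 0.33 in KAP1 WT cells, and their difference of -0.01 had an interval of -0.09 to 0.06. Its knockdown ratios were -0.06 without hemin and -0.07 with it, a sign that turned when plain library sums set the scale. Its 5 transcripts gave hemin ratios between 0.27 and 0.37.

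SRXN1 stood at 49.3 scaled TPM in KAP1 KD cells with hemin, 44.8 in KAP1 KD cells without, 66.9 in KAP1 WT cells with hemin and 69.0 in KAP1 WT cells without. Both KD libraries were below both WT libraries. The SRXN1 knockdown ratio was -0.62 without hemin (1.53-fold lower, interval -0.72 to -0.53) and -0.44 with hemin (1.35-fold lower, interval -0.52 to -0.37). With hemin SRXN1 was 0.14 higher on the log2 scale in KAP1 KD cells and 0.04 lower in KAP1 WT cells, where the interval of -0.12 to 0.03 spans 0. SRXN1 was the sole target of the 7 not above its level without hemin in KAP1 WT cells.

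**Figure D3:**
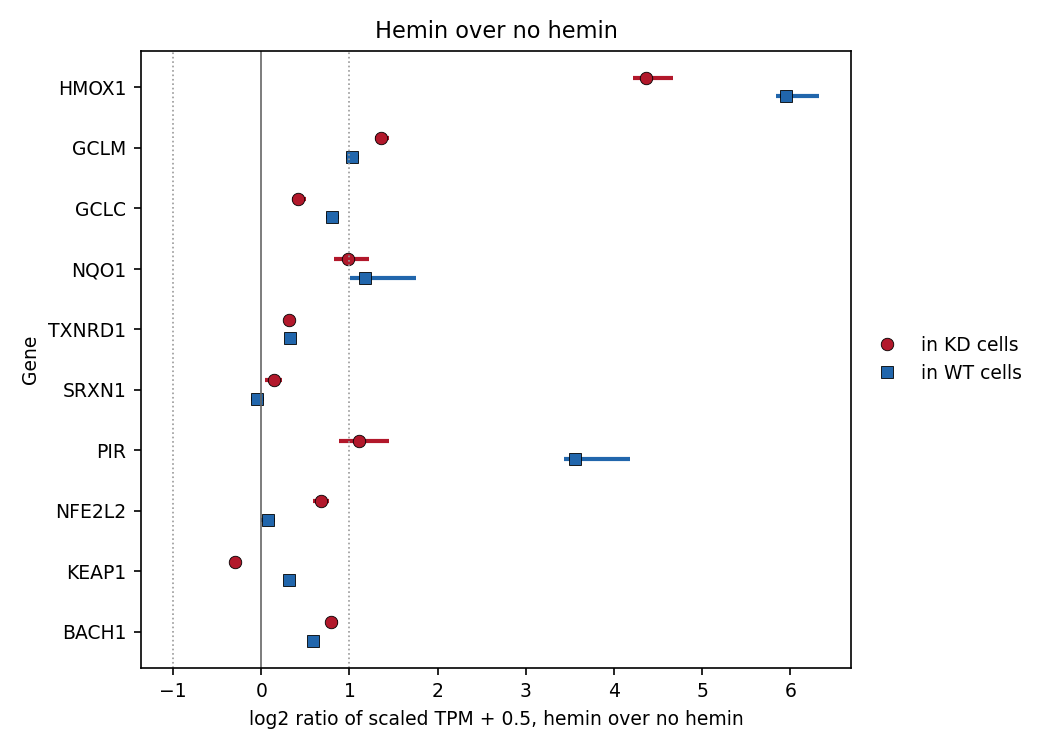
Log2 ratio of hemin over no hemin for the 10 genes in KAP1 KD cells (red circles) and KAP1 WT cells (blue squares), with 95% counting intervals as bars and dotted lines at 2-fold. HMOX1 and PIR are the genes whose response was smaller in KAP1 KD cells by more than 2-fold.

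Of the regulators, NFE2L2 and KEAP1 differed with the knockdown in opposite directions without hemin and were close with it. NFE2L2 stood at 65.7 scaled TPM in KAP1 KD cells with hemin, 41.0 in KAP1 KD cells without, 62.6 in KAP1 WT cells with hemin and 59.4 in KAP1 WT cells without. The KAP1 KD library without hemin was the low one. Knockdown over WT was -0.53 without hemin (interval -0.63 to -0.44) and 0.07 with hemin (interval 0.00 to 0.14), and hemin over no hemin was 0.67 in KAP1 KD cells and 0.08 in KAP1 WT cells.

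KEAP1, the adaptor that marks NRF2 for breakdown, stood at 157 scaled TPM in KAP1 KD cells with hemin, 193 in KAP1 KD cells without, 162 in KAP1 WT cells with hemin and 131 in KAP1 WT cells without. The KAP1 KD library without hemin was the high one. The KEAP1 knockdown ratio was 0.56 without hemin (interval 0.51 to 0.62) and -0.05 with hemin, where the sign turned when plain library sums set the scale. Hemin over no hemin was -0.30 in KAP1 KD cells and 0.31 in KAP1 WT cells. KEAP1 had the highest level of the 10 genes in both libraries without hemin. The ratio of KEAP1 to NFE2L2 levels was 2.39 in KAP1 KD cells with hemin, 4.70 in KAP1 KD cells without, 2.59 in KAP1 WT cells with hemin and 2.20 in KAP1 WT cells without.

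BACH1, the haem-binding repressor of HMOX1, was lower in KAP1 KD cells and higher with hemin. It stood at 65.7 scaled TPM in KAP1 KD cells with hemin, 37.7 in KAP1 KD cells without, 114 in KAP1 WT cells with hemin and 75.5 in KAP1 WT cells without. Both KD libraries were below both WT libraries. Knockdown over WT was -0.99 without hemin (1.99-fold lower, interval -1.07 to -0.93) and -0.79 with hemin (1.73-fold lower, interval -0.83 to -0.75). Hemin over no hemin was 0.79 in KAP1 KD cells and 0.59 in KAP1 WT cells. The 2 coding transcripts had near-equal reads in each library, while the non-coding one had 10 to 52 reads. The RNA kit is not stated to mark strand, so reads of a gene and of an overlapping antisense gene cannot be told apart.

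**Figure D4:**
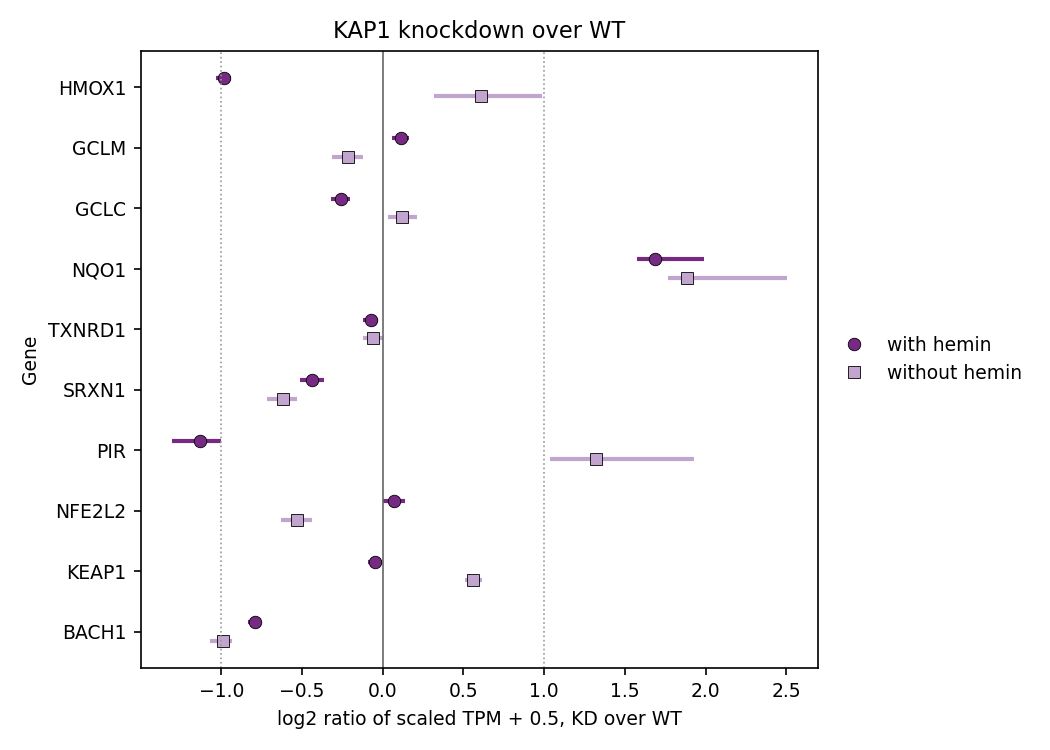
Log2 ratio of KAP1 KD over KAP1 WT for the 10 genes with hemin (dark circles) and without (light squares), with 95% counting intervals as bars and dotted lines at 2-fold. HMOX1 and PIR lie right of 0 without hemin and left of it with hemin, NQO1 lies right of 1 in both, and SRXN1 and BACH1 lie left of 0 in both.

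All 10 genes reached 5 scaled TPM in the higher library of each comparison. With hemin 3 of the 10 were at least 2-fold higher in KAP1 KD cells (HMOX1, GCLM and PIR) and 4 in KAP1 WT cells (the same 3 and NQO1), where 2.31% and 2.6% of all genes were. In KAP1 WT cells NQO1 and PIR were below 5 scaled TPM without hemin, so their entry there called for a high level with hemin, and the count was 3 with plain library sums, where NQO1 no longer entered. At least 2-fold lower were 0 in either, where 1.7% and 2.59% of all genes were. The median log2 ratio of the 10 was 0.73 in KAP1 KD and 0.69 in KAP1 WT cells, and that of all genes 0.00 and -0.01. Between KAP1 KD and KAP1 WT cells without hemin 2 of the 10 were at least 2-fold higher (NQO1 and PIR) and 0 lower, where 6.74% and 6.43% of all genes were. Both entered through the KD library alone, so nothing is read from that count. With hemin 1 was higher (NQO1) and 1 lower (PIR), where 6.01% and 4.11% of all genes were. The medians of the 10 were 0.03 without and -0.17 with hemin, against 0.03 and 0.01 over all genes. HMOX1 with hemin at -0.98, BACH1 without hemin at -0.99 and NQO1 with hemin in KAP1 KD cells at 0.98 lay just short of the 2-fold limit, and GCLM in KAP1 WT cells at 1.03 just past it.

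A list of 128 further genes of the pathway, of which 122 were in the table, was described in the same way. With hemin, 4 of 106 at the limit were at least 2-fold higher and 1 lower in KAP1 KD cells, and 9 of 105 were higher and 0 lower in KAP1 WT cells. Their median log2 ratios were 0.06 and 0.15. Between KAP1 KD and KAP1 WT cells 7 of 105 were higher and 7 lower without hemin, and 9 of 108 higher and 10 lower with it. These shares stand beside the background percentages above, and the knockdown shares without hemin are near them. Some of the genes counted, given by name below, entered a comparison only through its higher library.

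The haem breakdown, ferritin and iron export group had the highest medians with hemin, at 0.52 in KAP1 KD and 0.76 in KAP1 WT cells over 9 genes. FTL, ferritin light chain, stood at 5279 scaled TPM in KAP1 KD cells with hemin, 2313 in KAP1 KD cells without, 7712 in KAP1 WT cells with hemin and 2593 in KAP1 WT cells without. BLVRB, a biliverdin reductase, stood at 195 in KAP1 KD cells with hemin, 96.2 in KAP1 KD cells without, 474 in KAP1 WT cells with hemin and 160.0 in KAP1 WT cells without. FTL and BLVRB were the 2 genes of the group at least 2-fold higher with hemin in both cells, at log2 ratios of 1.19 and 1.57 for FTL and 1.02 and 1.56 for BLVRB. In each cell alone, 2.31% (KAP1 KD) and 2.6% (KAP1 WT) of all genes were that much higher. FTH1, ferritin heavy chain, had 0.89 in KAP1 KD and 0.76 in KAP1 WT cells. Ferritin genes have many processed copies in the genome that may share their reads. The iron exporter gene SLC40A1 was at 175 and 146 scaled TPM in KAP1 KD cells with and without hemin, against 307 and 306 in KAP1 WT cells.

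In the glutathione group, 1 of 27 genes was at least 2-fold higher and 1 lower with hemin in KAP1 KD cells, and 3 were higher and 0 lower in KAP1 WT cells. The shares of all genes were 2.31% higher and 1.7% lower in KAP1 KD cells, and 2.6% and 2.59% in KAP1 WT cells. The counts in KAP1 KD cells are near these shares. MGST1, a membrane glutathione transferase, had hemin ratios of 1.39 in KAP1 KD and 1.01 in KAP1 WT cells. Between KAP1 KD and KAP1 WT cells 0 were higher and 3 lower without hemin, namely SLC7A11, SLC3A2 and CHAC1, which are also known as targets of the stress factor ATF4. Of all genes 6.74% were higher and 6.43% lower there. With hemin 3 of 27 were higher and 4 lower, where 6.01% and 4.11% of all genes were. SLC7A11, the cystine transporter, stood at 19.5 scaled TPM in KAP1 KD cells and 52.2 in KAP1 WT cells with hemin, and at 9.61 in KAP1 KD cells and 52.5 in KAP1 WT cells without. SLC3A2, its partner chain, had knockdown ratios of -1.63 without and -1.29 with hemin, and CHAC1, a glutathione-degrading enzyme, -3.48 and -3.47. With hemin CHAC1 passed the limit of 5 scaled TPM only through the WT library (57.3 against 4.73 in KAP1 KD cells), so a difference was built in there. In KAP1 KD cells SLC7A11 was higher with hemin by 0.99 on the log2 scale, while in KAP1 WT cells the ratio was -0.01.

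Among genes of thioredoxins, peroxiredoxins and reactive oxygen removal, 0 of 19 in KAP1 KD cells and 0 of 18 in KAP1 WT cells differed 2-fold with hemin. Over all genes 2.31% were higher and 1.7% lower in KAP1 KD cells, and 2.6% and 2.59% in KAP1 WT cells. A count of 0 is near these shares in a group of this size. TXN, thioredoxin itself, had hemin ratios of 0.52 in KAP1 KD and 0.37 in KAP1 WT cells. Knockdown over WT had a median of 0.37 without and 0.32 with hemin, with 2 of 18 at least 2-fold higher and 1 lower without hemin (6.74% and 6.43% of all genes) and 4 of 19 higher and 1 lower with it (6.01% and 4.11% of all genes). The counts without hemin are near the shares of all genes. Of the 4 higher with hemin, TXNRD3 passed the limit of 5 scaled TPM only through the KD library (7.01 against 3.05 in KAP1 WT cells). A difference was thus built in for it, and it stayed under the limit in both libraries without hemin. The gene at least 2-fold lower in both states was SESN2, a stress-induced sestrin, at -1.67 and -1.43.

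In the quinone, aldehyde and aldo-keto group, 4 of 13 genes were at least 2-fold higher in KAP1 KD cells without hemin and 1 of 13 with it, where 6.74% and 6.01% of all genes were. CBR3, a carbonyl reductase, stood at 8.48 scaled TPM in KAP1 KD cells and 3.45 in KAP1 WT cells with hemin, and at 9.59 in KAP1 KD cells and 1.22 in KAP1 WT cells without, log2 ratios of 1.18 and 2.55. It was the sole listed gene at least 2-fold higher in KAP1 KD cells in both states. It was below 5 scaled TPM in both KAP1 WT libraries and entered through the KD libraries alone, so a difference was built in. NQO2, the relative of NQO1, stood at 24.5 scaled TPM in KAP1 KD cells with hemin, 11.6 in KAP1 KD cells without, 31.8 in KAP1 WT cells with hemin and 12.3 in KAP1 WT cells without. Its knockdown ratios were -0.08 without and -0.37 with hemin, where NQO1 had 1.88 and 1.69. NADPH supply genes had 0 of 12 past 2-fold with hemin in either cell, and export pumps 0 of 4 in KAP1 KD and 0 of 3 in KAP1 WT cells. Among all genes 2.31% were higher and 1.7% lower in KAP1 KD cells, and 2.6% and 2.59% in KAP1 WT cells. Counts of 0 in such small groups are near these shares.

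**Figure D5:**
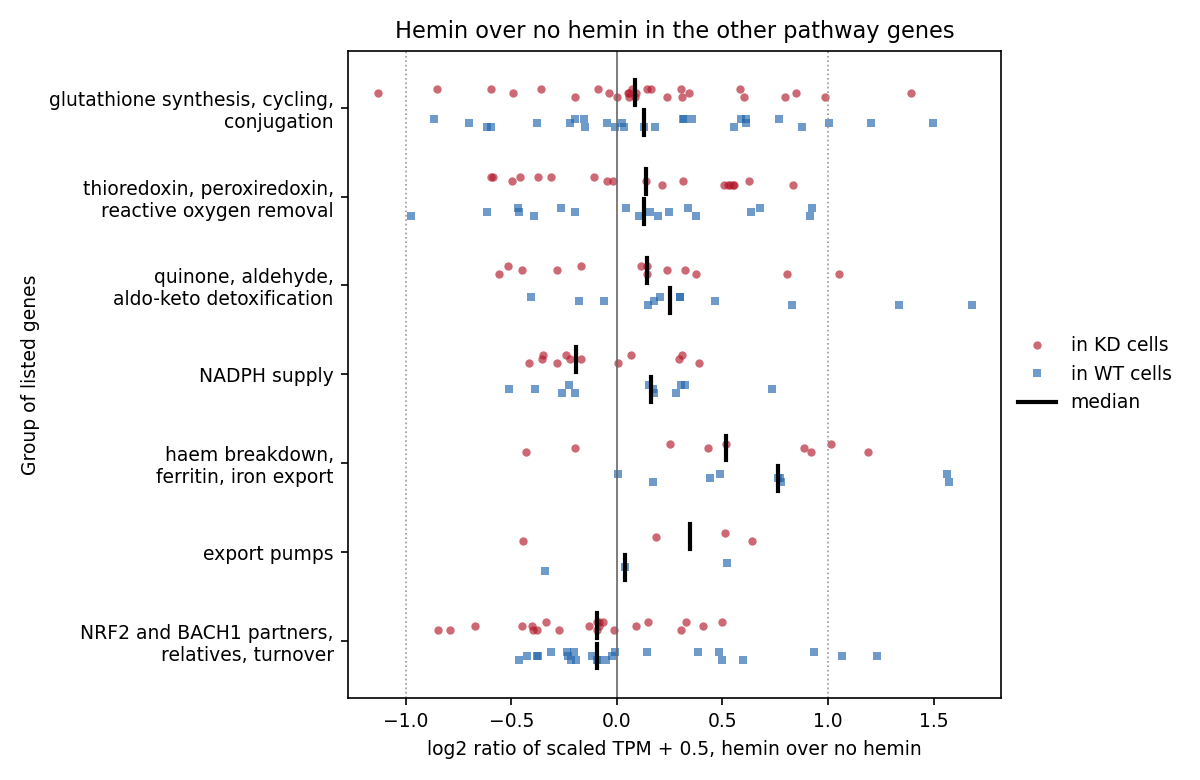
Log2 ratio of hemin over no hemin for each further pathway gene at 5 scaled TPM, by group, in KAP1 KD cells (red circles) and KAP1 WT cells (blue squares), with black bars at the medians and dotted lines at 2-fold. The haem breakdown, ferritin and iron export group has the medians furthest right, 0.52 in KAP1 KD and 0.76 in KAP1 WT cells.

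Among partners, relatives and turnover factors of NRF2 and BACH1, 0 of 22 were at least 2-fold apart with hemin in KAP1 KD cells, and 2 of 24 were higher and 0 lower in KAP1 WT cells. In KAP1 KD cells 2.31% of all genes were higher and 1.7% lower, and in KAP1 WT cells 2.6% and 2.59%. The counts of 0 are near these shares, and the gap between the cells rests on 2 genes, MAFG and TRIM16L. In KAP1 WT cells TRIM16L passed the limit of 5 scaled TPM only through the hemin library (8.83 against 3.95), so a difference was built in for it. It stayed under the limit in both KAP1 KD libraries and was not among the 22. The median hemin ratio of the group was -0.09 in both cells. MAFG, a small MAF protein that pairs with both NRF2 and BACH1, stood at 88.2 scaled TPM in KAP1 KD cells with hemin, 66.3 in KAP1 KD cells without, 186 in KAP1 WT cells with hemin and 78.9 in KAP1 WT cells without. Its hemin ratio was 0.41 in KAP1 KD and 1.23 in KAP1 WT cells. MAFF had hemin ratios of -0.85 in KAP1 KD and 0.50 in KAP1 WT cells, and MAFK -0.34 and 0.48. SQSTM1, the autophagy adaptor that can bind KEAP1, had 0.33 in KAP1 KD and 0.94 in KAP1 WT cells. With hemin 3 of 24 genes of the group were at least 2-fold lower in KAP1 KD than in KAP1 WT cells, where 4.11% of all genes were. They were MAFF at -1.54, ATF4 at -1.30 and MAFG at -1.07. MAFF passed the limit of 5 scaled TPM only through the WT library (14.0 against 4.51 in KAP1 KD cells), so a difference was built in for it. ATF4, a stress response factor, stood at 411 scaled TPM in KAP1 KD and 1013 in KAP1 WT cells with hemin, and at 542 and 1018 without.

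The genes most like HMOX1 were found by the distance between log2 levels, each less its mean over the 4 libraries, among 11162 genes. The 5 nearest were MLLT11 (distance 2.68), SLC38A6 (2.76), PIR (2.87), the embryonic globin gene HBE1 (2.88) and SLCO2B1 (3.04). These distances are larger than those of the 5 nearest genes of each of the other 9 genes. For PIR the 5 nearest were ANXA2P2 (distance 0.38), ANXA2 (0.40), HBE1 (0.65), RBM11 (0.74) and C12orf60 (0.81). ANXA2, annexin A2, stood at 127 scaled TPM in KAP1 KD cells with hemin, 59.0 in KAP1 KD cells without, 203 in KAP1 WT cells with hemin and 23.3 in KAP1 WT cells without. ANXA2P2 is a processed copy of it, so the counting could have split their reads.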

How the data were processed

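The authors deposited 4 columns of RPKM for 24538 rows of RefSeq transcripts, per the file headers. The submitters' processing notes name Bowtie and hg19, and nothing more of the upstream steps was known here. Column sums differed with depth, so the RPKM values still carried it. Within a row the values, each divided by a factor per library, were whole multiples of a single step, and whole reads came out for 24533 of 24533 rows without whole numbers, within 0.0002 reads plus 4e-09 of the value. Reads that share a common factor come out divided by it (7.61% of random sets of 4 numbers), which widens their intervals. The other 5 rows hold whole numbers.

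For each gene the listed transcript of highest mean was used. Values were divided by read totals times factors from the trimmed mean of log ratios (TMM; trims 0.3 and 0.05), 1.01 in KD without hemin, 1.03 in KD with hemin, 0.964 in WT without and 0.994 in WT with hemin. Genes entered a comparison when the higher library reached 5 scaled TPM, with 2-fold as the limit for counting and a pseudocount of 0.5. Python 3.11.15, numpy 2.4.6, pandas 2.3.3 and scipy 1.17.1 were used, and the steps were tested on simulated data. The 10 genes, the lists and the comparisons were chosen with earlier results of these data known. The rule named all 10 genes, up to 4 list genes per direction that were 2-fold apart in both paired comparisons, 8 set partners and products, and the 5 genes nearest HMOX1. HMOX2, SLC40A1, ATF4, OSGIN1, TRIM16L, TXNRD3, BACH1-IT1 and the structural RNAs fall outside it and were chosen after their values were seen. The same holds for the genes with more negative differences than PIR and the genes nearest PIR. Mouse ChIP-seq peaks of the same series were not used here.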

Additional observations from a re-analysis of the deposited data

Results flagged for a closer look

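For 6 of the 10 genes the knockdown ratio had opposite signs with and without hemin, each beyond its counting interval. The share of all genes that turn sign in this way was not counted, so nothing is read from this number. With hemin the intervals of NFE2L2 (0.0007 to 0.14) and KEAP1 (-0.09 to -0.003) came close to 0. The ratio with hemin minus that without was -2.45 for PIR, -1.59 for HMOX1, -0.61 for KEAP1 (whose sign with hemin turned under plain library sums), -0.38 for GCLC, 0.33 for GCLM and 0.60 for NFE2L2. KEAP1 also had opposite hemin ratios in KAP1 KD and KAP1 WT cells, -0.30 and 0.31, a difference of -0.61. With 1 library per group these differences were not tested.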

How the results depend on the processing

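No paired analysis was possible because each group is 1 library, and for the same reason no library could be left out. For the 10 genes 49 ratios and differences were compared, without the HMOX1 difference, which is given below. Under every setting that gave a value, other than the deposited values taken as they stand, 46 kept their sign. The exceptions were TXNRD1 in both knockdown comparisons and KEAP1 with hemin, which turned under plain library sums. With the deposited values included, 38 kept their sign. NQO1 gave no hemin ratio in KAP1 WT cells with plain sums or a floor of 20, and the 10 genes then had 3 higher there. Plain sums put the median knockdown ratio of all genes at 0.14 without and 0.11 with hemin (otherwise 0.03 and 0.01), and turned 733 higher and 700 lower genes to 960 and 521 without hemin, and 655 and 448 to 823 and 363 with it. The deposited values still carry depth and gave 146 higher and 2449 lower genes after knockdown without hemin, 1106 and 298 with it, and 5037 and 12 (otherwise 250 and 184) with hemin in KAP1 KD cells and 455 and 193 (otherwise 281 and 280) in KAP1 WT cells. With them the 10 genes had 1 higher and 3 lower after knockdown without hemin and 0 lower with it, and 9 higher with hemin in KAP1 KD cells. The pathway list then had 2 higher and 20 lower after knockdown without hemin, 59 higher and 0 lower with hemin in KAP1 KD cells and 14 higher in KAP1 WT cells. The HMOX1 difference became -0.83. With a floor of 20 the 10 genes had 0 higher after knockdown in either state, since NQO1 stayed below it, as PIR did without hemin, and the list 5 higher with hemin. In KAP1 WT cells 1 list gene was lower with hemin with a pseudocount of 0.1 and 1 with transcripts summed, which gave 2 lower in KAP1 KD cells. The scaling from messenger RNAs was chosen after seeing the data. Counting intervals had median widths of 0.21 to 0.25 on the log2 scale over all genes.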

Other observations

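BACH1-IT1, a transcript named as intronic to BACH1, stood at 53.2 scaled TPM in KAP1 KD cells with hemin, 38.4 in KAP1 KD cells without, 92.9 in KAP1 WT cells with hemin and 61.5 in KAP1 WT cells without. Knockdown over WT was -0.67 without hemin and -0.80 with it, where BACH1 had -0.99 and -0.79.

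OSGIN1, an oxidative stress gene of the list, stayed under 5 scaled TPM in every library and so was counted in no comparison. It stood at 3.43 scaled TPM in KAP1 KD cells with hemin, 1.13 in KAP1 KD cells without, 4.68 in KAP1 WT cells with hemin and 0.61 in KAP1 WT cells without.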
